A study of Mus musculus with 6 samples.

Results

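The 10 genes described here encode the constant part of the αβ T cell receptor (TCR), its CD3 and ζ signalling chains, the CD4 coreceptor and the first kinases of the pathway. They are Trac, Trbc1, Trbc2, Cd3d, Cd3e, Cd3g, Cd247, Cd4, Lck and Zap70, chosen by symbol from their textbook role. They are 10 of the 29199 genes in the deposited table, and all 10 passed the filter on low counts that left 18321 genes for testing. Splenic regulatory T cells (Treg) were profiled by RNA-seq after bone marrow transplantation, to compare Treg that had met wild-type (WT) or HP1α KO conventional CD4 T cells (Tconv). The hosts of both groups were lethally irradiated B6 mice given B6 and semi-allogeneic B6D2F1 marrow, naive Tconv and WT Treg. The Tconv were WT in 3 libraries and HP1α KO in 3 libraries, the KO arising from germline deletion of Hp1a with CMV-cre. All Treg were WT in both groups. They came from B6 Foxp3-Thy1.1 mice, were grown for 3 days with IL-2, TGFb and anti-CD3/CD28 beads and for 5 to 7 days without the beads, and were sorted 3 weeks after the graft on CD4, Thy1.1 and H-2K markers. All of them had therefore received a TCR stimulus in culture before transfer, and the sort itself selected on CD4 protein. The sources used here do not say whether each library was a separate mouse or a pool, so p-values measure the spread between these libraries, which may be technical.

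In a T cell of the αβ lineage, the receptor chains that bind antigen have almost no cytoplasmic tail and depend on the CD3 chains and the ζ chain to signal. On engagement the kinase Lck, carried by CD4, phosphorylates tyrosines in the tails of these chains, and ZAP-70 docks there and passes the signal on. Treg need this receptor both for their development in the thymus and for their suppressive function in the periphery.

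The messages of all 10 genes were abundant in every library and their levels in Treg with HP1α KO Tconv overlapped those in Treg with WT Tconv. 0 of the 10 genes passed an adjusted p-value of 0.05 by edgeR, and the same test called 0.0% of all genes tested. 0 of the 10 also had an unadjusted edgeR p-value under 0.05, against 14.5% of all genes tested, and 6.98% that were higher with HP1α KO Tconv at that level. DESeq2 called 0 of the 10 after adjustment and 0 before it, against 3.75% and 15.0% of all genes. The 95% intervals of the fold changes, taken gene by gene, all lay between 0.704 (Cd3e) and 1.28 (Trbc1), so that within this model larger changes in either direction fall outside the interval of every one of the 10 genes.

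Capitals in the following sequences mark the codons that give these chains their signalling function, and the sequences are shown because they set apart the signalling chains from one another. The immunoreceptor tyrosine-based activation motif (ITAM) is a pair of tyrosines, each followed at a fixed spacing by a leucine or isoleucine, and ZAP-70 binds it once both tyrosines are phosphorylated. It was searched in the coding sequences as a tyrosine codon, any 2 codons, a leucine or isoleucine codon, 6 to 8 further codons and the same start again. Cd3d, Cd3e and Cd3g each held 1 such motif and Cd247, which encodes ζ, held 3. Sequences are spliced, coding strand, from GRCm39, with the genomic span from first to last base, introns included, and capitals mark the codons of the tyrosines and of the leucines or isoleucines.
Cd3d (chr9:44897393-44897609, plus strand): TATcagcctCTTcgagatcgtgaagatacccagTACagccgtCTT
Cd3e (chr9:44910847-44911738, minus strand): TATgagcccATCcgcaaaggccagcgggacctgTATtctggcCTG
Cd3g (chr9:44882033-44882566, minus strand): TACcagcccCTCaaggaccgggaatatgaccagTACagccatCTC
Cd247 motif 1 (chr1:165684020-165685023, plus strand): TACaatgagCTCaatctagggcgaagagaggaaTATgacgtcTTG
Cd247 motif 2 (chr1:165686042-165686829, plus strand): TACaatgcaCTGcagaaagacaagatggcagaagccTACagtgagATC
Cd247 motif 3 (chr1:165687388-165688611, plus strand): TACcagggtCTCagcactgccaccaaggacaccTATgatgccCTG

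The 3 motifs of Cd247 were present in 2 of its 8 annotated coding transcripts, whereas the other 6 held 2. Counts here are per gene and do not tell these transcripts apart. CD4 and Lck are held together by a pair of cysteines in the CD4 tail and a pair in the Lck amino terminus that share a zinc ion. The coding stretch of each is shown with the cysteine codons in capitals, as the contact that ties the coreceptor to its kinase.
Cd4 (chr6:124843238-124843586, minus strand): aagaccTGCcagTGCccccac
Lck (chr4:129451904-129451927, minus strand): gacgtgTGTgaaaacTGCcactat

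The β chain uses either Trbc1 or Trbc2 as its constant segment, and these copies are near-identical over their first exon and diverge towards the 3′ end. Both lie on chromosome 6, Trbc1 at chr6:41515152-41516815 and Trbc2 at chr6:41523664-41525286, on the plus strand. The first exon of 375 bases differed at 1 position, C260A, counted from 1 at the start of the exon with the Trbc1 base first. The second exon of 18 bases differed at 3 positions and the third exon at 15. The fourth exon is 237 bases long in Trbc1 and 192 in Trbc2, and at 95% identity or more 521 bases aligned between the transcripts, 70.7% of that of Trbc1. Both copies are printed for exon 2, exon 3 and the stretch of exon 1 around its single difference, with the differing bases in capitals, because reads from these exons can be told apart only at such bases. Exon 4, which also separates the copies, is not printed.
Trbc1 exon 1 (chr6:41515391-41515431, plus strand): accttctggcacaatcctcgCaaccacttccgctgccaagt
Trbc2 exon 1 (chr6:41523903-41523943, plus strand): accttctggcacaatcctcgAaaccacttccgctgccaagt
Trbc1 exon 2 (chr6:41516048-41516065, plus strand): actgtggGatTacCtcag
Trbc2 exon 2 (chr6:41524544-41524561, plus strand): actgtggAatCacTtcag
Trbc1 exon 3 (chr6:41516163-41516269, plus strand): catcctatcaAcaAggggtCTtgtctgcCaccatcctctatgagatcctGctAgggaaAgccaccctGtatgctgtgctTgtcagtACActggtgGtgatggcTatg
Trbc2 exon 3 (chr6:41524706-41524812, plus strand): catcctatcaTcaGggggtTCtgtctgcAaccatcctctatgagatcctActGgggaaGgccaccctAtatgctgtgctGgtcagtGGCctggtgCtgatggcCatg

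A read that lies wholly in exon 1 and misses that base fits both copies equally, and the estimated counts share such reads by a model. The split between Trbc1 and Trbc2 is therefore less certain than their sum.

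The libraries held between 87421755 and 119078882 counts, and 22573 to 24626 genes were detected in each. Libraries of the same group differed by more than counting noise, their chi-square over its degrees of freedom being at least 21.6. Foxp3, the lineage factor of Treg, was at 200 to 252 CPM (counts scaled to a common library total by TMM) in 5 libraries and at 154 CPM in replicate 2 of the HP1α KO Tconv group. Il2ra, the high-affinity chain of the IL-2 receptor, was at 161 to 199 CPM in the same 5 libraries and at 121 CPM in that replicate. The log2 fold change was 0.00 for Foxp3 and -0.04 for Il2ra, with edgeR adjusted p-values of 0.994 and 0.946. Foxp3, Il2ra, Ctla4, Ikzf2 and Tnfrsf18, the 5 Treg markers, summed to 3966, 3978.5 and 3450.5 CPM with WT Tconv and to 3491, 3795.5 and 3156 CPM with HP1α KO Tconv. Replicate 3 of Treg with WT Tconv stood apart in transcripts of other cells, and the 5 red cell markers summed to 5341 CPM there against 365 to 678 CPM elsewhere. The 7 neutrophil markers summed to 1818 CPM in that library against 41.0 to 225 CPM, and the 7 macrophage or monocyte markers to 179 CPM against 12.9 to 48.4 CPM. No marker of these lists was at 0 in all libraries. In bulk RNA fewer cells of a type and less RNA per cell cannot be told apart, which applies to every level given here.

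Trac, the constant segment of the receptor α chain (ENSMUSG00000076928, chr14:54457978-54461663, plus strand, GRCm39 as for all positions here), was at 857, 907 and 779.5 CPM in replicates 1, 2 and 3 of Treg with WT Tconv. In Treg with HP1α KO Tconv it was at 946, 802 and 917 CPM. The lowest value belonged to WT replicate 3 and the highest to KO replicate 1, and the groups overlapped because KO replicate 2 lay under 2 of the WT libraries. The means were 848 CPM ± 64.4 (SD, n = 3) and 888 CPM ± 76.3 (SD, n = 3), which gave a log2 difference of 0.07 (standard error 0.0917) with a 95% interval from -0.14 to 0.28. The edgeR adjusted p-value was 0.768 and that of DESeq2 was 0.77.

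Trbc1 (ENSMUSG00000076490) was at 480.0, 457 and 415 CPM with WT Tconv and at 449, 498 and 544 CPM with HP1α KO Tconv. It had the smallest p-value of the 10 genes, 0.16 before and 0.523 after adjustment by edgeR, with a log2 fold change of 0.14 (standard error 0.092, 95% interval -0.07 to 0.35). The groups overlapped, since KO replicate 1 was below WT replicates 1 and 2. Trbc2 (ENSMUSG00000076498) was at 799, 1011 and 849 CPM with WT Tconv and at 1057, 868 and 865 CPM with HP1α KO Tconv. It was highest in KO replicate 1 and lowest in WT replicate 1, with no separation of the groups, and its log2 fold change was 0.07 (95% interval -0.20 to 0.34, edgeR adjusted p-value 0.812).

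Within a library the Trbc1 share of the summed Trbc1 and Trbc2 counts was 37.5%, 31.1% and 32.9% with WT Tconv and 29.8%, 36.5% and 38.6% with HP1α KO Tconv. The means were 33.8% ± 3.33 (SD, n = 3) and 35.0% ± 4.58 (SD, n = 3), and the extremes on both sides belonged to the KO group. The 95% Wilson interval was 29.6% to 30.1% for the lowest share and 38.4% to 38.9% for the highest. The reads carry no molecular identifiers and are not independent molecules, so these intervals hold counting error alone and leave out the error of assigning exon 1 reads to 1 of the copies. The 2 copies summed to 1279, 1468 and 1264 CPM with WT Tconv and to 1506, 1367 and 1409 CPM with HP1α KO Tconv. For the sum the log2 fold change was 0.09 (standard error 0.0857), and the edgeR adjusted p-value was 0.646. The ratio of Trac to the summed β segments was 0.67, 0.618 and 0.617 with WT Tconv and 0.628, 0.587 and 0.651 with HP1α KO Tconv. The highest of these 6 ratios was 1.14 times the lowest, and the groups overlapped.

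**Figure D1:**
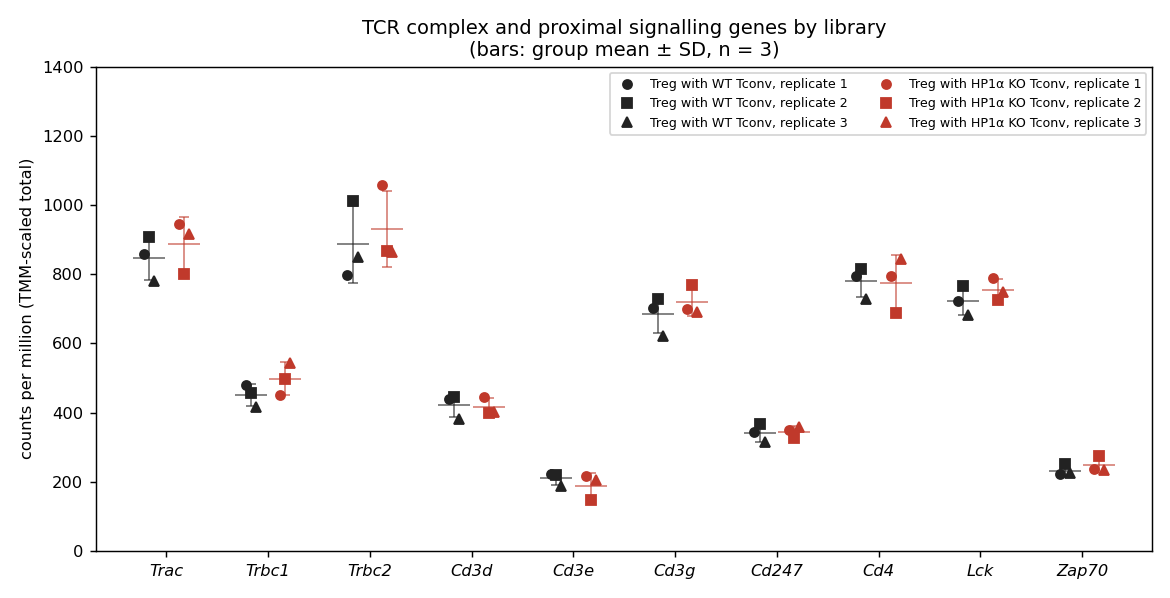
TMM-scaled CPM of each of the 10 genes in every library, black for WT Tconv and red for HP1α KO Tconv with a marker shape per replicate, and lines giving the mean and SD of each group (n = 3). For every gene the points of Treg with WT Tconv and Treg with HP1α KO Tconv overlap, and Cd3e shows 1 low point, KO replicate 2 at 147 CPM.

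Cd3d, Cd3e and Cd3g lie together on chromosome 9, at chr9:44893083-44899173 (plus strand), chr9:44910037-44920925 (minus strand) and chr9:44880870-44891735 (minus strand). CD3δ and CD3γ each pair with CD3ε beside the α and β chains. Cd3d (ENSMUSG00000032094) was at 439, 445 and 381 CPM with WT Tconv and at 445, 399 and 401 CPM with HP1α KO Tconv. Its means of 422 CPM ± 35.2 (SD, n = 3) and 415 CPM ± 26.0 (SD, n = 3) differed by less than either spread, at a log2 fold change of -0.02 (95% interval -0.22 to 0.17, edgeR adjusted p-value 0.925). Cd3g (ENSMUSG00000002033) was at 703, 729 and 622 CPM with WT Tconv and at 699.6, 768 and 692 CPM with HP1α KO Tconv. WT replicate 3 was the lowest and KO replicate 2 the highest, and the log2 fold change was 0.07 (95% interval -0.12 to 0.27, edgeR adjusted p-value 0.728).

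Cd3e (ENSMUSG00000032093), the chain shared by both CD3 pairs, varied most among the 10 genes. It was at 221, 219 and 188 CPM with WT Tconv and at 215, 147 and 204 CPM with HP1α KO Tconv. KO replicate 2 lay below every other library, the ratio of highest to lowest was 1.51, and the other KO libraries fell within the WT range. Its log2 fold change was -0.15 (standard error 0.15, 95% interval -0.51 to 0.20, edgeR adjusted p-value 0.682), and it was 0.00 without KO replicate 2. The same library had the highest Cd3g level of all 6, and its Cd3d level deviated by -0.07 from the mean on the log2 scale. The ratio of Cd3g to Cd3e counts, computed after the values had been seen, was 5.24 there against 3.17 to 3.39 in the other 5 libraries. The ratio of Cd3d to Cd3e was 2.72 there against 1.97 to 2.07. The library with the lowest Cd3e was also the one with the lowest Foxp3, Il2ra and Cd4, whereas its sum over the 5 Treg markers, 3795.5 CPM, was the third highest of the 6.

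Cd247 (ENSMUSG00000005763, chr1:165616250-165704846, plus strand) encodes ζ, the chain with most of the ITAMs of the receptor. It was at 343, 366 and 314 CPM with WT Tconv and at 351, 327 and 357 CPM with HP1α KO Tconv. All 3 KO values lay between the lowest and the highest WT value, and the log2 fold change was 0.02 (95% interval -0.16 to 0.20, edgeR adjusted p-value 0.941). The ratio of Cd247 to the summed CD3 chains was between 0.249 and 0.275, with means of 0.259 ± 0.00669 (SD, n = 3) and 0.261 ± 0.0132 (SD, n = 3). Exons of Pou2f1 on the opposite strand cover 51.1% of the exonic bases of Cd247, and 5 of its 8 coding transcripts overlap them. The libraries were stranded, but the strand setting of the counting is not given in the sources used here, and Pou2f1 itself held 28161 counts over the 6 libraries.

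Cd4 (ENSMUSG00000023274, chr6:124841655-124874758, minus strand) encodes the coreceptor that binds MHC class II and that the sort selected on. It was at 794, 816 and 729 CPM with WT Tconv and at 795, 688 and 843 CPM with HP1α KO Tconv. The KO group held both the lowest and the highest value, and the means of 779.8 CPM ± 45.6 (SD, n = 3) and 775 CPM ± 79.3 (SD, n = 3) gave a log2 fold change of -0.01 (95% interval -0.22 to 0.20, edgeR adjusted p-value 0.976). The ratio of Cd4 to Cd3e counts was 3.59, 3.73 and 3.87 with WT Tconv and 3.69, 4.69 and 4.13 with HP1α KO Tconv, so that KO replicate 2 was highest here too and the groups overlapped.

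Lck (ENSMUSG00000000409, chr4:129442137-129467434, minus strand), the Src family kinase that phosphorylates the ITAMs, was at 721.5, 767 and 682 CPM with WT Tconv and at 788, 724 and 748 CPM with HP1α KO Tconv. It had the narrowest range of the 10 genes, with the highest library 1.16-fold over the lowest. Its log2 fold change was 0.06 (standard error 0.0746, 95% interval -0.11 to 0.23, edgeR adjusted p-value 0.75). Zap70 (ENSMUSG00000026117, chr1:36800837-36821905, plus strand), the kinase that docks on phosphorylated ITAMs, was at 222, 250 and 225 CPM with WT Tconv and at 236, 273 and 234 CPM with HP1α KO Tconv. Its log2 fold change was 0.09 (95% interval -0.10 to 0.29, edgeR adjusted p-value 0.647), and KO replicate 2 was its highest library although it was the lowest for Cd3e and Cd4. The ratio of Zap70 to Lck was 0.308, 0.326 and 0.33 with WT Tconv and 0.300, 0.377 and 0.313 with HP1α KO Tconv, again highest in KO replicate 2.

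**Figure D2:**
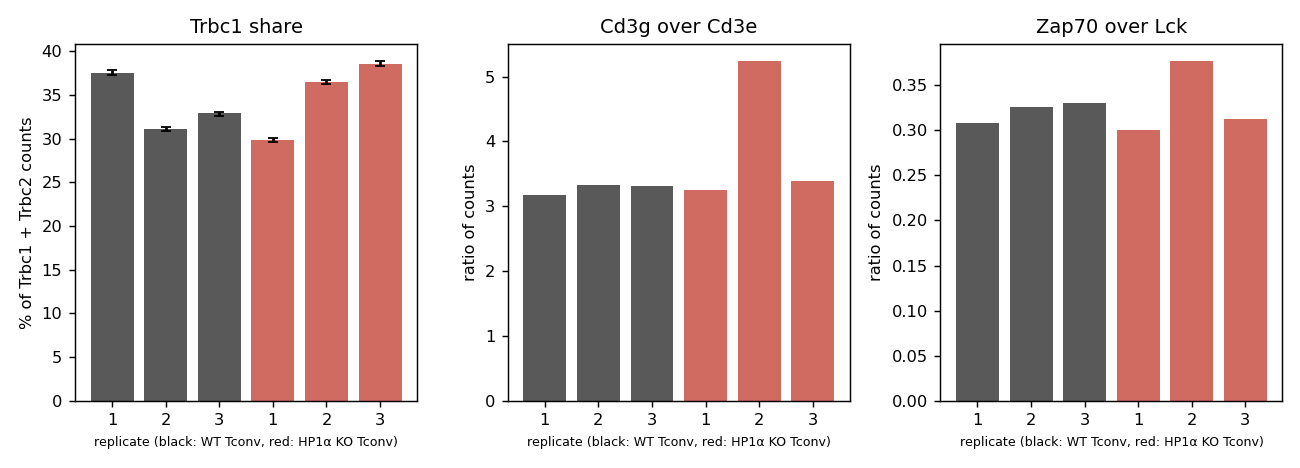
Trbc1 share of the Trbc1 and Trbc2 counts (percent, error bars giving the 95% Wilson interval), ratio of Cd3g to Cd3e counts and ratio of Zap70 to Lck counts, 1 bar per library, black for WT Tconv and red for HP1α KO Tconv. The groups overlap in each panel, and KO replicate 2 is highest for Cd3g over Cd3e at 5.24 and for Zap70 over Lck at 0.377.

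**Figure D3:**
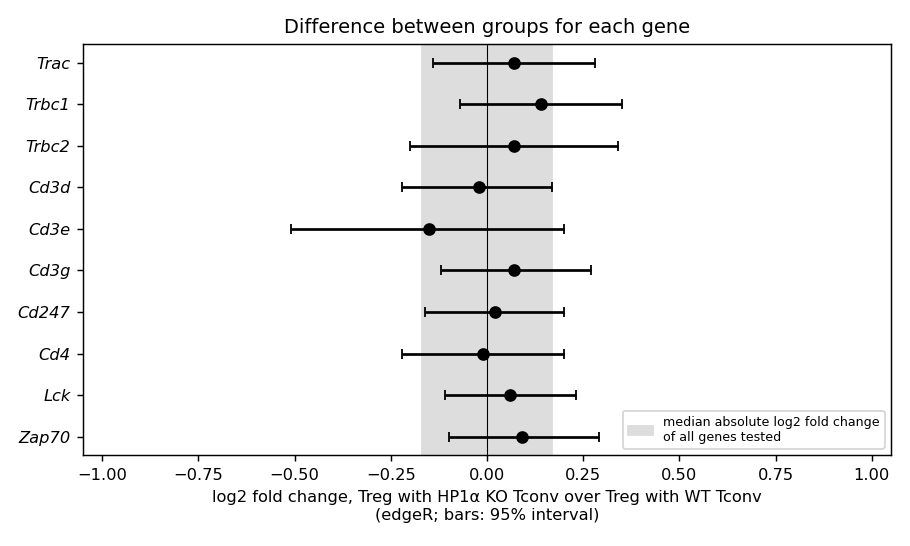
Log2 fold change of each gene, the HP1α KO Tconv group over the WT Tconv group, from the edgeR fit, with its 95% interval as a bar and a grey band of the median size over all genes tested, 0.169, on either side of 0. Every interval crosses 0, and the interval of Cd3e, from -0.51 to 0.20, is the widest.

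Of the 10 log2 fold changes 7 were above 0 and 3 below, with a median of 0.06 and a median size of 0.0684. Over all genes tested the median was -0.01 and the median size 0.169, and over the 2326 genes with a mean of at least 100 CPM, a cut-off chosen after the values had been seen, the median size was 0.108. The members are abundant, so the second group is the nearer comparison. The groups did not overlap for 0 of the 10 genes, against 23.0% of all genes tested, 11.5% that were higher with HP1α KO Tconv, and 33.7% of the abundant genes. The ratio of the highest to the lowest library had a median of 1.23 over the 10 genes and 1.24 over the abundant genes. The members do not vary independently, since they share libraries and scaling.

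The libraries differed in how they placed these genes. WT replicate 3 was below the mean for all 10 genes, by 0.07 to 0.19 on the log2 scale, and was the lowest library for 6. This is also the library with the high red cell and neutrophil transcripts given above, and their part in its low TCR levels was not tested. Without it, 6 of the 10 log2 fold changes were above 0 and the lowest was -0.22 for Cd3e. Without KO replicate 2 all 10 were at or above 0, the highest being 0.14 for Trac and Trbc1. Without both of these libraries, a choice made after the values had been seen, 5 of the 10 were above 0 and the smallest unadjusted edgeR p-value was 0.215.

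**Figure D4:**
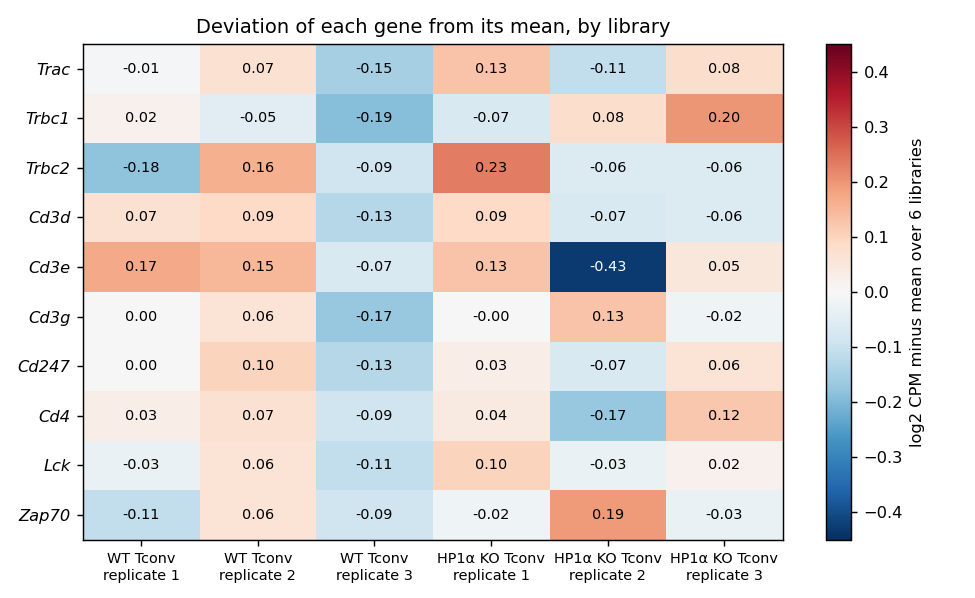
Deviation of each library from the mean of the 6 libraries, on the log2 CPM scale, for each of the 10 genes. WT replicate 3 is below the mean in every row, and KO replicate 2 runs from -0.43 for Cd3e to 0.19 for Zap70.

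Levels of different genes were compared as CPM per kb of exonic length, taking the union of annotated exons. Trbc2 was highest at 1312 CPM per kb, followed by Trac at 928.5, Trbc1 at 643, Lck at 235, Cd3g at 214.5, Cd4 at 173, Cd3d at 162, Zap70 at 67.4, Cd247 at 58.3 and Cd3e at 48.8 CPM per kb, as means over the 6 libraries. The ranges over libraries overlapped for the neighbours Lck and Cd3g, Cd4 and Cd3d, and Cd247 and Cd3e, and for no other neighbours in this order. Below the top pair the order depended on the length used. With the length of the canonical transcript, Cd3g came after Trac at 683 CPM per kb, Cd247 came before Cd4 at 302 CPM per kb and Zap70 had the lowest mean at 105 CPM per kb, with a range that overlapped that of Cd3e. Trac and Trbc2 were above every CD3 chain under the 3 lengths tried, whereas Trbc1 and Cd3g overlapped with the canonical length.

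The chains of other receptors were low, as a check of the sort. Cd8a, which marks cytotoxic T cells, was at 0.0601 to 0.495 CPM, and Cd8b1 at 5.70 to 8.44 CPM. Trdc, the constant segment of the δ chain, was at 1.42 to 2.20 CPM in 5 libraries and at 6.24 CPM in WT replicate 3, and the γ segments Trgc1, Trgc2 and Trgc4 were at 1.37 to 4.15 CPM. Fcer1g, a signalling chain of Fc receptors that can stand in for ζ, was at 0.373 to 1.46 CPM in 5 libraries and at 6.36 CPM in WT replicate 3. Ptcra, the pre-TCR α chain of thymocytes, was not listed in the table. Of the 7 measured genes of this list, 0 had an unadjusted edgeR p-value under 0.05. DESeq2 gave Fcer1g no p-value and Cd8a no adjusted p-value, called 0 of the other 5 genes and had 1 gene at that unadjusted level. Without KO replicate 2 the edgeR count was 2, and it was 1 without any single WT replicate. Of all genes tested 16.4% passed at that unadjusted level without KO replicate 2, against 14.5% with all libraries. In the fits that left out a WT replicate the share was 10.6% to 11.2%.

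The genes around the receptor were counted in 5 further lists of textbook composition, read against the shares of all genes given above. These lists were chosen with earlier results of these data known. With the list of other receptor chains they make 88 genes, of which 25 (28.4%) had an unadjusted edgeR p-value under 0.05, 17 of them higher and 8 lower with HP1α KO Tconv, against 14.5% of all genes and 23.2% of the abundant genes. edgeR called 0 of the 88 after adjustment. DESeq2, which gave 2 of them no adjusted p-value, called 5 (5.68%), against 3.75% of all genes tested. The groups did not overlap for 28 of the 88 (31.8%), against 23.0% of all genes tested and 33.7% of the abundant genes. The lists hold genes on both sides of 100 CPM, so neither share is a matched comparison. Up to 2 genes per direction are named below from each of the 5 lists by smallest unadjusted edgeR p-value. Groups that do not overlap are therefore no further support for these genes. In the list of other proximal tyrosine kinases 1 of 8 genes passed the unadjusted threshold, and 2 did without WT replicate 2 or WT replicate 3. In the fits that left out a WT replicate, 10.6% to 11.2% of all genes tested passed. The gene that passed with all libraries was Csk, which places the inhibitory phosphate on Lck. It was at 253, 279 and 263 CPM with WT Tconv and 298, 314.5 and 310.2 CPM with HP1α KO Tconv. Csk had a log2 fold change of 0.22 (standard error 0.0661), edgeR gave it an adjusted p-value of 0.231 and DESeq2 one of 0.0705, and its groups did not overlap. Fyn, the Src family partner of Lck, was at -0.12, Tec at 0.11 and Fes at -0.30 on the log2 scale, with edgeR adjusted p-values of 0.648, 0.646 and 0.682. Fes was at 14.0 CPM in WT replicate 3, the library with high neutrophil and macrophage transcripts, and at 6.13 to 9.49 CPM elsewhere, and its log2 fold change without that library was 0.06.

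Of the 20 genes of the LAT signalosome, the adaptor complex that ZAP-70 builds by phosphorylating LAT, 6 passed the unadjusted threshold, 3 higher and 3 lower. Without WT replicate 3 the count was 3, and 11.2% of all genes tested passed in that fit. DESeq2 called 2 of the 20 (10.0%), both lower, against 3.75% of all genes tested. Wasl, an activator of actin branching, was at 31.1, 35.6 and 32.9 CPM with WT Tconv and 27.6, 27.5 and 26.0 CPM with HP1α KO Tconv, at -0.30 in log2 fold change (edgeR adjusted p-value 0.209, DESeq2 0.0344). Sos2, an exchange factor for Ras, was at 42.0, 46.8 and 43.3 against 37.8, 35.9 and 37.0 CPM, a log2 fold change of -0.25 (edgeR adjusted p-value 0.218, DESeq2 0.0468). For both genes the groups were separate, all KO libraries lying below all WT libraries. Nck2, an adaptor that binds CD3ε, and Skap1, which links the receptor to integrins, had log2 fold changes of 0.21 and 0.24 (edgeR adjusted p-values 0.241 and 0.244).

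Among the 19 genes of the second messenger step, 5 passed the unadjusted threshold, 3 higher and 2 lower. The count was 9 without KO replicate 2, where 16.4% of all genes tested passed. It was 3 without WT replicate 1, where 10.6% passed, against 14.5% with all libraries. Malt1, the protease of the complex that leads to NF-κB, was at 413, 459.8 and 387 CPM with WT Tconv and 319, 279 and 284 CPM with HP1α KO Tconv. All KO libraries were below all WT libraries, with a log2 fold change of -0.51 (standard error 0.0884, 95% interval -0.72 to -0.31), which DESeq2 called at an adjusted p-value of 0.000116 and edgeR did not, at 0.209. With no filter beyond 1 count edgeR also called Malt1, at an adjusted p-value of 0.0311, and over all alternatives its adjusted p-value ran up to 0.437. Dgkz, the kinase that removes diacylglycerol, was at 310.1, 314 and 303 CPM with WT Tconv and 373, 433.5 and 361 CPM with HP1α KO Tconv. The KO libraries were all higher, at a log2 fold change of 0.33 (edgeR adjusted p-value 0.209, DESeq2 0.0212). Orai2, a subunit of calcium channels, was at 0.22 and Ppp3ca, a catalytic subunit of calcineurin, at -0.19 on the log2 scale, with edgeR adjusted p-values of 0.22 and 0.247.

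Of the 18 genes listed as negative regulators of the proximal step, 5 passed the unadjusted threshold, 3 higher and 2 lower. DESeq2 called 0 of the 18. The list name does not hold for each gene, since it includes the phosphatase genes Ptprc and Ptpn11. The count of 5 became 2 without WT replicate 3 and 3 without WT replicate 1, WT replicate 2, KO replicate 1 or KO replicate 2. In the fits that left out a WT replicate, 10.6% to 11.2% of all genes tested passed. The share was 12.5% without KO replicate 1 and 16.4% without KO replicate 2, against 14.5% with all libraries. Ubash3a, which dampens ZAP-70 signalling, had a log2 fold change of 0.26 and the adaptor Dok2 of 0.23, whereas Cblb, a ubiquitin ligase that restrains T cell activation, was at -0.24 and the phosphatase gene Ptpn11 at -0.17. Their edgeR adjusted p-values ran from 0.23 to 0.33. Of the 16 modulators of the TCR, a list of surface molecules that also holds the intracellular Themis and Tespa1, 8 passed the unadjusted threshold. Among them 7 were higher and 1 lower, and 6.98% of all genes tested were higher at that level. The 7 include Thy1, and the Treg were sorted on Thy1.1. The count of 8 became 4 without WT replicate 3 and 5 without WT replicate 1 or KO replicate 3. In those fits 11.2%, 10.6% and 10.4% of all genes tested passed. Cd96, a receptor of the nectin-binding family, was at 127.5, 122 and 106 CPM with WT Tconv and 145, 143 and 152 CPM with HP1α KO Tconv. Its log2 fold change was 0.31, which DESeq2 called at an adjusted p-value of 0.0338 and edgeR did not, at 0.209. Tespa1 had a log2 fold change of 0.29 and the costimulatory receptor Cd28 of -0.25 (edgeR adjusted p-values 0.224 and 0.236), and Cd53 of -0.11 (0.69). Without WT replicate 3 the count of 25 genes over all lists became 16, and the share of all genes tested at that unadjusted level was 11.2% in that fit.

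**Figure D5:**
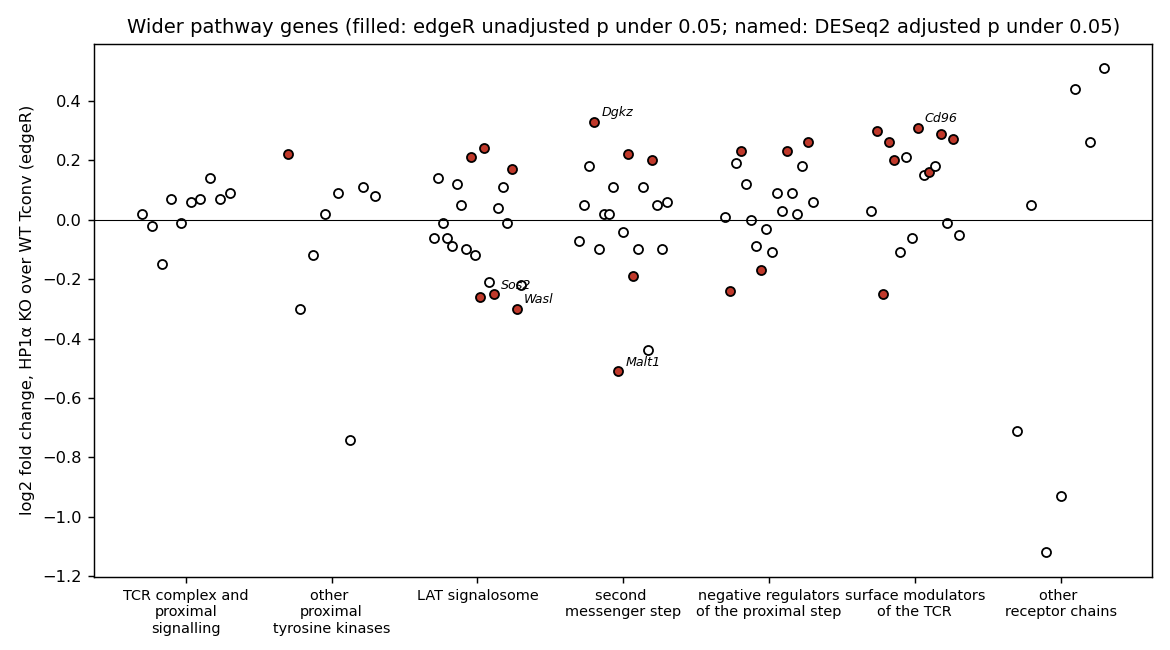
Log2 fold change of every tested gene of the wider lists beside the 10 members, each point a gene and filled where the unadjusted edgeR p-value was under 0.05. The members, in the first column, lie between -0.15 and 0.14 with no filled point, and the named genes, from -0.51 for Malt1 to 0.33 for Dgkz, are those that DESeq2 called.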

How the data were processed

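Total RNA of 6 Treg libraries was analysed. According to the submitters' processing notes and the study's methods, the authors aligned reads with STAR to GRCm39 and quantified them with Salmon, and deposited whole-number estimated counts for each gene without normalization. The strand setting of the counting is not given in the sources used here. A symbol was lacking for 64 genes, which held 0.0231% of the counts and kept their identifiers. Members and lists were chosen with earlier results of these data known.

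Genes passing filterByExpr (18321) were fitted with the quasi-likelihood test of edgeR version 4.0.16 (robust = TRUE, TMM, group only) in R version 4.3.3, with Benjamini-Hochberg adjustment over all genes tested and calls at 0.05. The study used DESeq2, here an alternative (version 1.42.0), as were limma-voom (limma version 3.58.1), other scalings and filters, a replicate block and leaving out each library. The study also required an absolute log2 fold change greater than 1, which was not applied here. The 5 genes of the wider lists that DESeq2 called, from -0.52 (Malt1) to 0.33 (Dgkz) by DESeq2, do not reach it. Levels are CPM of TMM-scaled totals. Marker sums use the unscaled total. Standard errors were obtained by dividing the size of the log2 fold change by the square root of F. The 95% intervals use the prior and residual degrees of freedom of the fit added together. Totals ran from 87421755 to 119078882 counts, and libraries of a group differed by more than counting noise. The members were named in any case, and from each wider list up to 2 genes per direction by smallest unadjusted p-value, all other receptor chains, Foxp3 and Il2ra. Positions, lengths and sequences were taken from GENCODE's later annotation of the same build. Scripts were tested on simulated data.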

Additional observations from a re-analysis of the deposited data

How the results depend on the processing

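The 10 members had no adjusted p-value under 0.401 in any of the 17 settings tried, and 14 of the 168 alternative log2 fold changes had the opposite sign, judged at 2 decimals with values that round to 0 not counted. Leaving out each library in turn moved the value of Trbc2 from -0.02 to 0.19, Cd3d from -0.09 to 0.03, Cd247 from -0.04 to 0.08 and Cd4 from -0.07 to 0.07. Trbc1 ran from 0.07 to 0.22, the latter without KO replicate 1 at an unadjusted edgeR p-value of 0.051. Trac ran from 0.01 to 0.14, Cd3e from -0.24 to 0.00 and Cd3g from 0.01 to 0.13. Lck ran from 0.02 to 0.12 and Zap70 from 0.02 to 0.16. Cd3d was 0.01 with total counts as the scaling, and Cd4 was 0.01 with upper quartile scaling and 0.03 with total counts, scalings that moved the median gene by 0.0206 and 0.0377. With WT replicate 3 and KO replicate 2 both left out, an alternative added after the data had been seen, Cd3g was -0.04, Cd4 0.03, Il2ra 0.11, Cd8a 0.43 and Fcer1g 1.48. Leaving out single libraries gave -0.18 to 0.15 for Il2ra, -0.48 to 0.06 for Fes, -1.61 to 0.02 for Cd8a, -0.11 to 0.19 for Cd8b1 and -1.61 to 1.18 for Fcer1g. It gave -0.20 to -0.01 for Fyn, which was nearest 0 without KO replicate 2, and -0.22 to -0.03 for Cd53. Cd53 was lowest without KO replicate 2, with edgeR p-values of 0.0213 before and 0.227 after adjustment. With both libraries left out Cd53 was -0.28 (edgeR p-value 0.0017 before and 0.087 after adjustment). The difference between groups (KO minus WT) ran from -0.69 to 3.71 percentage points for the Trbc1 share, -0.0278 to 0.00442 for Trac over the β segments, -0.00577 to 0.00724 for Cd247 over the CD3 chains and -0.0147 to 0.0239 for Zap70 over Lck.

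The count of genes called over all genes tested, 0 by edgeR, was 687 by DESeq2, 38 with no filter beyond 1 count, 1 with upper quartile scaling, 15 without both libraries, and 0 to 2 without single libraries. The cause of these differences was not tested. The wider pathway count of 25 ran from 16 (without WT replicate 3) to 27 (without KO replicate 2) and was 29 without both, while the share of all genes at that level was 11.2%, 16.4% and 18.2% in these fits against 14.5%. With the replicate number as a block 1 gene was called, which was not a member. The numbers were not treated as pairs, since libraries with the same number correlated at -0.042, 0.1823 and 0.1165 and not every library correlated best with its own number. Depth was not varied, so what it limits was not tested.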
